A study of Mus musculus with 9 samples.

Results

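Integrins are the receptors with which macrophages hold on to other cells and to the surrounding matrix, and 10 of their genes are described here across all conditions of 1 macrophage experiment. The members were the rows of the deposited count table whose mouse gene identifier carries the symbol Itgam, Itgax, Itgal, Itga4, Itga5, Itgav, Itgb1, Itgb2, Itgb5 or Itgb7. All 10 members were found among 22001 genes, and all 10 passed the filter on low counts. They were chosen by name, with earlier results of these data known. RNA was sequenced from macrophages grown from the bone marrow of C57BL6 mice, 6 h after treatment, with 3 libraries in each of 3 groups. The 3SL-labelled libraries (codes A2plus, B2plus and C2plus) received Pam3CSK4 at 100 µg/ml together with 3SL at 100 µl/ml. The Pam3CSK4-labelled libraries (D1, D2 and D3) received Pam3CSK4 at 100 µg/ml alone. The untreated-labelled libraries (A2, B2 and C2) received PBS. Pam3CSK4, a synthetic lipopeptide, is an agonist of Toll-like receptors. The series title names 3'-sialyllactose, a milk oligosaccharide, and 3SL is read as its short form. Sex, age, the number of animals and the amount of 3SL behind the stated volume were not given in the labels.

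Total counts per library lay between 7472482 and 43980309, so that 3 counts correspond to 0.0682 to 0.402 CPM, the unit of a gene's count relative to its library's total. Within a group, libraries varied beyond counting noise, but nothing in the labels says that they came from separate cultures. All p-values thus reflect the spread among these samples alone, and that spread may be technical. The summed CPM of 10 macrophage markers was 24595 to 25338 in the 3SL-labelled, 17989 to 18415 in the Pam3CSK4-labelled and 25548 to 26135 in the untreated-labelled libraries, and none of the 10 was at 0. Single markers split in direction. By the test described below, 3 were higher and 5 lower in the Pam3CSK4-labelled than in the untreated-labelled libraries. Of all tested genes 39.0% were higher and 35.9% lower.

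The labels were contradicted by the genes that a Toll-like receptor agonist is known to induce. Il1b, the gene of interleukin-1 beta, had 7495, 8353 and 8561 CPM in the 3SL-labelled, 7.36, 4.30 and 7.03 CPM in the Pam3CSK4-labelled and 10260, 10559 and 9661 CPM in the untreated-labelled libraries. Tnf, the gene of tumour necrosis factor, stood at 1219 to 1332 CPM in the 3SL-labelled, 17.6 to 18.9 CPM in the Pam3CSK4-labelled and 1651 to 1731 CPM in the untreated-labelled libraries. The libraries with almost no Il1b were thus those labelled as given Pam3CSK4 alone. The 3SL-labelled ones, which are also labelled as given Pam3CSK4, were high, as were the untreated-labelled ones. The groups are called by their labels throughout without taking these as proof of what the cells received. The first principal component, which held 90.4% of the variance over all tested genes, placed the 3 Pam3CSK4-labelled libraries on one side and the other 6 on the opposite side. The Pam3CSK4-labelled libraries are also the only ones with the code letter D, so that whatever the letter stands for and the treatment label cannot be told apart.

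An integrin is a pair of 1 alpha and 1 beta chain, and the pair decides the ligand. In macrophages the beta2 chain joins the alpha L chain (LFA-1, a receptor for the ICAM proteins), the alpha M chain (Mac-1, a receptor for complement fragments and fibrinogen) or the alpha X chain (CD11c). The beta1 chain joins the alpha 5 chain to bind fibronectin and the alpha 4 chain to bind VCAM-1, the alpha v chain joins beta5 to bind vitronectin, and beta7 joins alpha 4. Integrins are held in an inactive shape until talin and kindlin bind the beta chain from inside the cell, a step steered by the small GTPase Rap1, and bound integrins signal through kinases of the Src and Syk families.

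The 250 bases before the transcription start are shown for 4 of the members, and no link of sequence to the changes was tested. These are Itga5 and Itgb5, whose transcripts changed in opposite directions, and Itgam and Itgax, which lie next to each other. The sequences are from RefSeq on build GRCm38.p6, at chr15:103366792-103367041 on the minus strand for Itga5, chr16:33829415-33829664 on the plus strand for Itgb5, and chr7:128062390-128062639 and chr7:128129300-128129549 on the plus strand for Itgam and Itgax. Capitals mark matches, on either strand, to the Sp1 motif GGGCGG, the PU.1 motif GAGGAA or the AP-1 motif TGANTCA.
Itga5: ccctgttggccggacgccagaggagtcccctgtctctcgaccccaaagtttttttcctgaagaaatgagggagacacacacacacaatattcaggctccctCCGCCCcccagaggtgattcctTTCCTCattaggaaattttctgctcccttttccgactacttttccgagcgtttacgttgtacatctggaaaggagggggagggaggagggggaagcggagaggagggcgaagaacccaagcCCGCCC
Itgb5: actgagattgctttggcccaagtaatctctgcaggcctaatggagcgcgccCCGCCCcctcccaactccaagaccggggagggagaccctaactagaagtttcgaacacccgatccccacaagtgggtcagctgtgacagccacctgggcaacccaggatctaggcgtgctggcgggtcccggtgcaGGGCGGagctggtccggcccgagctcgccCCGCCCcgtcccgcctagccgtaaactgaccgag
Itgam: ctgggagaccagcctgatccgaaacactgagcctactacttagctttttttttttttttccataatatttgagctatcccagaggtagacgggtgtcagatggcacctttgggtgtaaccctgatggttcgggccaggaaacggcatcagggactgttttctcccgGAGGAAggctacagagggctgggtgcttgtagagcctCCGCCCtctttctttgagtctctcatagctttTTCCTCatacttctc
Itgax: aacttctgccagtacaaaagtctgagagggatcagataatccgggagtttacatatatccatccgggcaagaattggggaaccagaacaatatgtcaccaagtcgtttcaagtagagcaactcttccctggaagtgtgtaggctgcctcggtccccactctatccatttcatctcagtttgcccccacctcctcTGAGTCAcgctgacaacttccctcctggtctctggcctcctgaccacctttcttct
The Sp1 motif occurred 2 times before Itga5, 3 times before Itgb5, 1 time before Itgam and not before Itgax. The PU.1 motif occurred 1 time before Itga5, 2 times before Itgam and in neither of the other two, and the AP-1 motif occurred 1 time, before Itgax. These motifs do not overlap one another in the 4 windows. Among 27025 promoter windows of the same length, 32.9% held the Sp1 motif, 23.1% the PU.1 motif and 6.87% the AP-1 motif. RefSeq entries were matched for 8 members, all but Itgal and Itgb2. The TATA motif TATAAA and the consensus of NF-kB, searched in the same way, had no match in the 8 windows. They occurred in 13.0% and 3.75% of all windows, and at such shares 8 windows are too few to read anything from the absence. A match describes letters only and says nothing of binding.

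The alpha chains were lower in the Pam3CSK4-labelled than in the untreated-labelled libraries while the beta chains split. Itgal fell 10.7-fold, Itga5 7.11-fold, Itga4 2.30-fold, Itgax 2.27-fold and Itgam 1.63-fold, whereas Itgav was not called different. Of the beta chains Itgb5 rose 3.85-fold and Itgb7 1.37-fold, and Itgb1 and Itgb2 fell 1.27-fold and 1.22-fold with TMM scaling but were not called with library size only, where the log2 change of Itgb2 was 0.02. In all, 2 members were called higher and 7 lower at an adjusted p under 0.05 (edgeR's quasi-likelihood test, Benjamini-Hochberg over 11469 genes), and 9 of the 10 did not overlap between the groups. Of all tested genes 75.0% were called, 39.0% higher and 35.9% lower, and 76.0% did not overlap, so a call alone sets no integrin apart and the sizes carry the description. At 2-fold or more 1 member was higher and 4 were lower, against 24.0% of all genes in either direction. The median log2 change was -0.52 over the members and 0.03 over all tested genes. In bulk RNA, fewer cells that carry a transcript and less of it per cell cannot be told apart.

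The 3SL-labelled libraries differed from the Pam3CSK4-labelled ones in the opposite sense and by about as much. Here 7 members were called higher and 2 lower, against 71.5% of all tested genes called, 34.7% higher and 36.8% lower. Again 9 of the 10 did not overlap, against 73.1% of all genes, and 4 were higher and 1 was lower by 2-fold or more, against 23.0%. The median log2 change was 0.63 over the members and -0.02 over all tested genes. This comparison uses the same 3 Pam3CSK4-labelled libraries as the one above, so the mirrored signs are not a second finding. Between the 3SL-labelled and the untreated-labelled libraries 2 members were called higher and 0 lower, against 8.94% of all genes called, 3.83% higher and 5.11% lower. None reached 2-fold there, as against 0.174% of all genes.

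**Figure D1:**
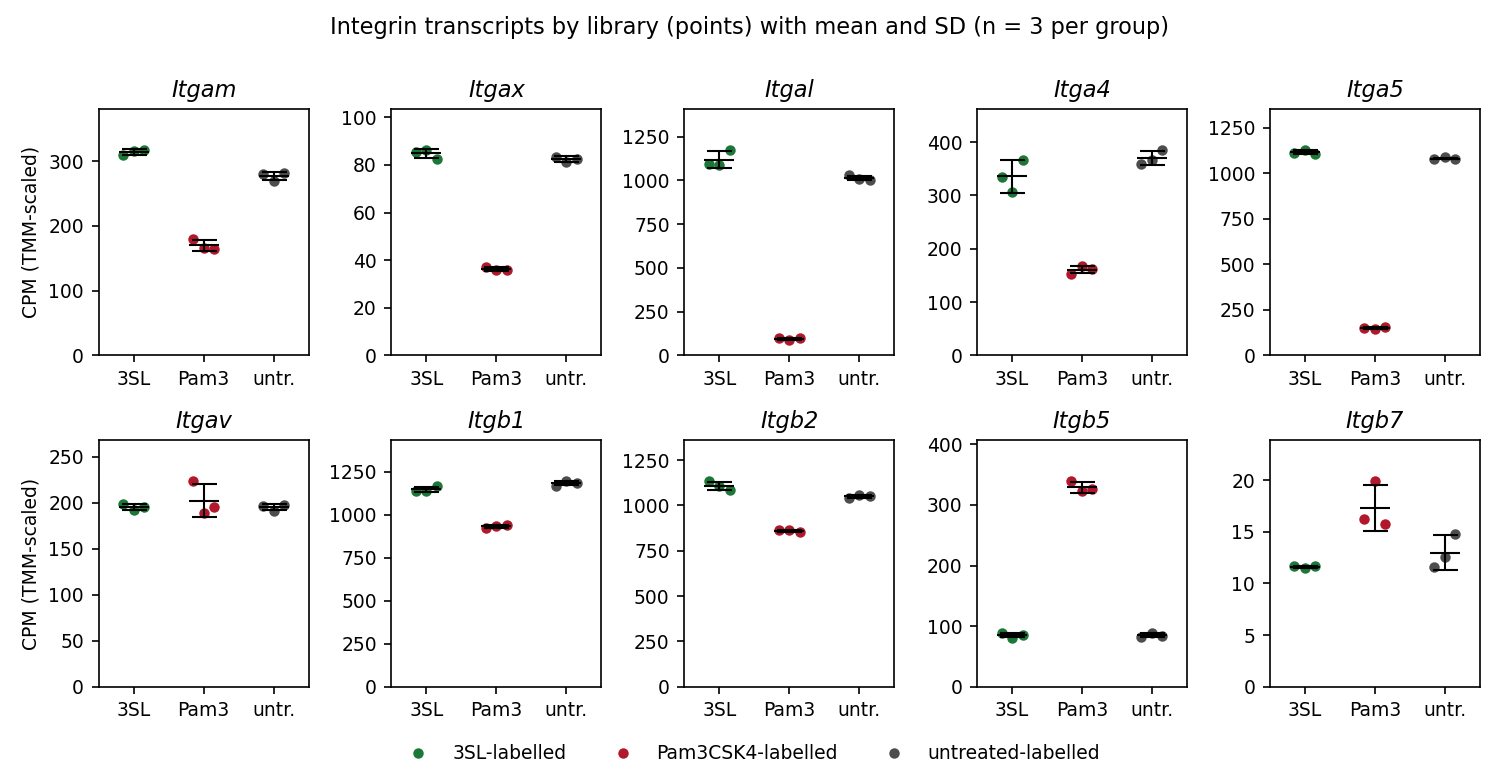
Normalised level in CPM (vertical axis, TMM-scaled, starting at 0, a separate range for each gene) of the 10 integrin genes in each library. Points are libraries, and bars the mean and SD of 3. The Pam3CSK4-labelled points stand apart from the other groups for every gene but Itgav, with Itgal at 87.7 to 99.4 CPM against 1004 to 1173 CPM elsewhere and Itgb5 at 323 to 339 CPM against 81.0 to 88.7 CPM.

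The chains that pair with beta2 lie together on chromosome 7 (Itgal at 127296260 to 127335138, Itgam at 128062640 to 128118491 and Itgax at 128129547 to 128150657 on GRCm38, all on the plus strand), yet they changed to very different degrees. Itgal had 1095, 1087 and 1173 CPM in the 3SL-labelled, 97.1, 87.7 and 99.4 CPM in the Pam3CSK4-labelled and 1029, 1009 and 1004 CPM in the untreated-labelled libraries. Its values in all 3 Pam3CSK4-labelled libraries were far below the others. The log2 change was -3.42 (SE 0.04, adjusted p 1.72e-30) for Pam3CSK4-labelled against untreated-labelled and 3.57 (SE 0.04, adjusted p 1.05e-30, 11.8-fold) for 3SL-labelled against Pam3CSK4-labelled.

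Itgam, whose product CD11b is the common surface marker of myeloid cells, moved least of these. It had 309, 316 and 317 CPM in the 3SL-labelled, 180, 166 and 164 CPM in the Pam3CSK4-labelled and 280, 270 and 282 CPM in the untreated-labelled libraries, with no overlap between any of the groups. The log2 change was -0.71 (SE 0.04, adjusted p 1.54e-15) for Pam3CSK4-labelled against untreated-labelled and 0.89 (SE 0.04, adjusted p 1.79e-17, 1.85-fold) for 3SL-labelled against Pam3CSK4-labelled. In GENCODE release M21, 3450 of the 5024 exonic bases of Itgam (68.7%) also belong to Gm49368 on the same strand, a gene model counted separately in the table with only 5 to 40 counts a library. Itgam itself had 2144 to 10881 counts a library, so under these gene models few reads, if any, were counted for both genes. Whether reads in shared bases were left out or given to Itgam is not stated in the sources used here. The level of Itgam relative to other genes is thus uncertain. Itgax, a marker of dendritic cells that many macrophages also carry, had 85.6, 86.2 and 82.6 CPM in the 3SL-labelled, 37.1, 35.8 and 36.0 CPM in the Pam3CSK4-labelled and 83.5, 81.3 and 82.6 CPM in the untreated-labelled libraries. All 3 Pam3CSK4-labelled libraries were low and the other groups overlapped, with log2 changes of -1.18 (SE 0.05, adjusted p 2.39e-18) for Pam3CSK4-labelled against untreated-labelled and 1.23 (SE 0.05, adjusted p 6.22e-18, 2.34-fold) for 3SL-labelled against Pam3CSK4-labelled.

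Their common partner Itgb2, on chromosome 10 at 77530252 to 77565708, changed little. It had 1133, 1105 and 1084 CPM in the 3SL-labelled, 864, 863 and 853 CPM in the Pam3CSK4-labelled and 1040, 1058 and 1052 CPM in the untreated-labelled libraries. On this scale the Pam3CSK4-labelled libraries were the lowest, with a log2 change of -0.29 (SE 0.03, adjusted p 4.35e-10) against the untreated-labelled ones, but with library size as the only scaling the change was 0.02 and not called (adjusted p 0.412). The 3SL-labelled libraries were above the Pam3CSK4-labelled ones by 0.36 on the log2 scale (SE 0.03, adjusted p 4.9e-12, 1.29-fold), and by 0.09 with library size only (adjusted p 0.00473). Dropping the TMM factors moves the median of all genes to 0.34 in the first comparison and to -0.29 in the second, and changes of this size are read relative to that shift.

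Ratios of transcripts within a library do not depend on such scaling, and they were formed per kilobase of exonic length. The summed level of the 3 alpha partners was 0.691 ± 0.0341 of that of Itgb2 in the 3SL-labelled, 0.198 ± 0.00806 in the Pam3CSK4-labelled and 0.659 ± 0.0135 in the untreated-labelled libraries (SD, n = 3 each). With the same counts divided by only the bases of each gene that no other counted gene shares, these ratios were 1.07, 0.461 and 1.01 in the same order. The Pam3CSK4-labelled one was still the lowest. This shorter length is right only if reads in shared bases were not counted, which is not known here. The make-up of that sum differed too. Itgal made up 68.0% ± 0.911 of it in the 3SL-labelled, 25.8% ± 1.36 in the Pam3CSK4-labelled and 68.1% ± 0.437 in the untreated-labelled libraries, while Itgam made up 24.9% ± 0.574, 60.6% ± 1.36 and 24.3% ± 0.407 in the same order. By full exonic length the leading alpha transcript was Itgam in the Pam3CSK4-labelled libraries and Itgal in the other groups. With the same counts divided by only the unshared bases, the Itgam share became 51.5%, 83.1% and 50.7%, and Itgam led in every group. Which transcript led outside the Pam3CSK4-labelled libraries thus depends on the length used. The larger Itgam share in the Pam3CSK4-labelled libraries kept its direction. With 3 libraries against 3, an exact two-sided permutation test of a ratio cannot go below p = 0.10, so these ratios carry no test.

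**Figure D2:**
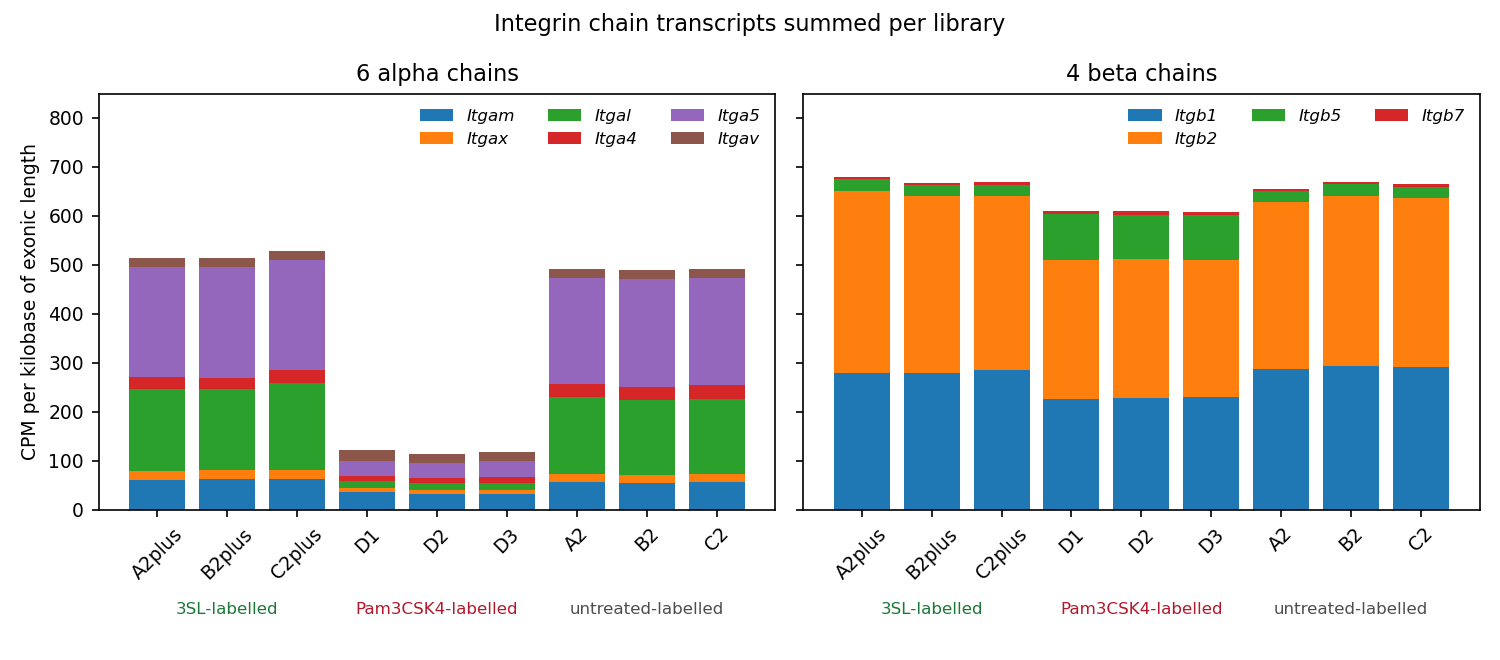
CPM per kilobase of exonic length (vertical axis, the same range in both panels, starting at 0) stacked for the 6 alpha chains (left) and 4 beta chains (right) in each library. The alpha sum is 113 to 121 in the Pam3CSK4-labelled libraries and 489 to 527 in the others, while the beta sum is 607 to 611 against 655 to 679. With the same counts divided by only the unshared bases, the alpha sums are 186 to 201 in the Pam3CSK4-labelled and 609 to 668 in the other libraries.

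The fibronectin receptor chain alpha 5 and its partner beta1 parted in the same way. Itga5, on chromosome 15 at 103344286 to 103366763 on the minus strand, had 1111, 1126 and 1105 CPM in the 3SL-labelled, 153, 146 and 158 CPM in the Pam3CSK4-labelled and 1076, 1086 and 1078 CPM in the untreated-labelled libraries. All 3 Pam3CSK4-labelled libraries were low by a wide margin, and the other groups lay close together without overlapping. The log2 change was -2.83 (SE 0.03, adjusted p 8.08e-31) for Pam3CSK4-labelled against untreated-labelled and 2.87 (SE 0.03, adjusted p 8.73e-31, 7.33-fold) for 3SL-labelled against Pam3CSK4-labelled. Itgb1, which pairs with more alpha chains than any other beta chain, lies on chromosome 8 at 128685654 to 128733200. It had 1138, 1137 and 1165 CPM in the 3SL-labelled, 923, 936 and 939 CPM in the Pam3CSK4-labelled and 1169, 1194 and 1187 CPM in the untreated-labelled libraries. Its log2 change was -0.34 (SE 0.03, adjusted p 6.75e-12) for Pam3CSK4-labelled against untreated-labelled and 0.30 (SE 0.03, adjusted p 1.89e-10, 1.23-fold) for 3SL-labelled against Pam3CSK4-labelled. With library size only, these became -0.03 (adjusted p 0.272) and 0.02 (adjusted p 0.415), and neither was called. The ratio of Itga5 to Itgb1 per kilobase, which no scaling touches, was 0.804 ± 0.0178 in the 3SL-labelled, 0.135 ± 0.00524 in the Pam3CSK4-labelled and 0.755 ± 0.00557 in the untreated-labelled libraries (SD, n = 3 each).

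Itga4, the other partner of beta1 considered here and the receptor chain for VCAM-1, lies on chromosome 2 at 79255426 to 79333123. It had 334, 306 and 367 CPM in the 3SL-labelled, 153, 167 and 163 CPM in the Pam3CSK4-labelled and 359, 367 and 385 CPM in the untreated-labelled libraries. All 3 Pam3CSK4-labelled libraries were again the lowest, and the other groups overlapped. Its log2 change was -1.20 (SE 0.05, adjusted p 1.51e-18) for Pam3CSK4-labelled against untreated-labelled and 1.06 (SE 0.05, adjusted p 6.62e-17, 2.08-fold) for 3SL-labelled against Pam3CSK4-labelled. Because Itga5 fell more, the ratio of Itga4 to Itga5 per kilobase was 0.373 ± 0.0265 in the Pam3CSK4-labelled libraries, against 0.121 ± 0.00442 in the untreated-labelled ones (SD, n = 3 each). Of the exonic bases of Itga4, 1124 (8.04%) lie within Cerkl on the opposite strand, a gene with 4 to 29 counts a library.

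Itgb7, which forms the gut-homing pair with alpha 4 on lymphocytes, was the lowest of the members. It lies on chromosome 15 at 102215995 to 102231944 on the minus strand and had 11.7, 11.5 and 11.7 CPM in the 3SL-labelled, 16.3, 19.9 and 15.8 CPM in the Pam3CSK4-labelled and 11.6, 12.6 and 14.8 CPM in the untreated-labelled libraries. All 3 Pam3CSK4-labelled libraries were the highest, by a log2 change of 0.45 (SE 0.10, adjusted p 0.000182) over the untreated-labelled ones, and the 3SL-labelled libraries were below them by a log2 change of -0.59 (SE 0.12, adjusted p 5.37e-05, 1.51-fold). Defining lymphocyte markers were close to 0 in every group: their 7 genes summed to 0.587 to 0.915 CPM in the 3SL-labelled, 0.480 to 1.15 CPM in the Pam3CSK4-labelled and 1.17 to 1.74 CPM in the untreated-labelled libraries.

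Of the vitronectin receptor chains, Itgb5 was higher in the Pam3CSK4-labelled libraries and Itgav was not called different. Itgav, on chromosome 2 at 83724397 to 83806916, had 198, 192 and 195 CPM in the 3SL-labelled, 223, 189 and 195 CPM in the Pam3CSK4-labelled and 196, 191 and 197 CPM in the untreated-labelled libraries. All groups overlapped, with the single highest value in D1. The log2 change was 0.06 (95% interval -0.0366 to 0.149, adjusted p 0.265) for Pam3CSK4-labelled against untreated-labelled and -0.05 (95% interval -0.147 to 0.0462, adjusted p 0.342) for 3SL-labelled against Pam3CSK4-labelled. With library size only these became 0.37 (adjusted p 2.68e-08) and -0.32 (adjusted p 5.98e-07), both called, which is close to the shift of the median of all genes. Itgb5, on chromosome 16 at 33829665 to 33949338, had 88.1, 81.0 and 85.8 CPM in the 3SL-labelled, 339, 323 and 327 CPM in the Pam3CSK4-labelled and 82.5, 88.7 and 83.6 CPM in the untreated-labelled libraries. It was high in the 3 Pam3CSK4-labelled libraries and at like levels in the others, with a log2 change of 1.95 (SE 0.04, adjusted p 4.59e-25) for Pam3CSK4-labelled against untreated-labelled and -1.96 (SE 0.04, adjusted p 2.54e-24, 3.88-fold) for 3SL-labelled against Pam3CSK4-labelled. The ratio of Itgb5 to Itgav per kilobase was 1.32 ± 0.0381 in the 3SL-labelled, 4.94 ± 0.299 in the Pam3CSK4-labelled and 1.32 ± 0.0718 in the untreated-labelled libraries (SD, n = 3 each).

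The alpha v chain can also pair with beta1, beta3, beta6 or beta8. Of these, Itgb3, Itgb6 and Itgb8 were set beside Itgb5 after their values had been seen. Itgb8, whose pair with alpha v activates latent TGF-beta, had 28.2, 29.2 and 34.4 CPM in the 3SL-labelled, 0.56, 0.861 and 0.535 CPM in the Pam3CSK4-labelled and 44, 41.5 and 46.8 CPM in the untreated-labelled libraries. It was nearly lost from the Pam3CSK4-labelled libraries, at 7 to 15 counts a library, with a log2 change of -6.00 (SE 0.15, adjusted p 1.39e-23) against the untreated-labelled ones. Of the summed level of Itgb3, Itgb5 and Itgb8 per kilobase, Itgb8 made up 10% ± 0.958 in the 3SL-labelled, 0.0627% ± 0.0186 in the Pam3CSK4-labelled and 13.9% ± 1.05 in the untreated-labelled libraries (SD, n = 3 each). Itgb5 made up 86.8%, 98.2% and 83.3% in the same order, Itgb3 was at 3.11%, 1.72% and 2.81%, and Itgb6 had no count in any library. These shares leave out Itgb1, which was at 281, 229 and 290 CPM per kilobase in the same order, above Itgb5 in each group.

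**Figure D3:**
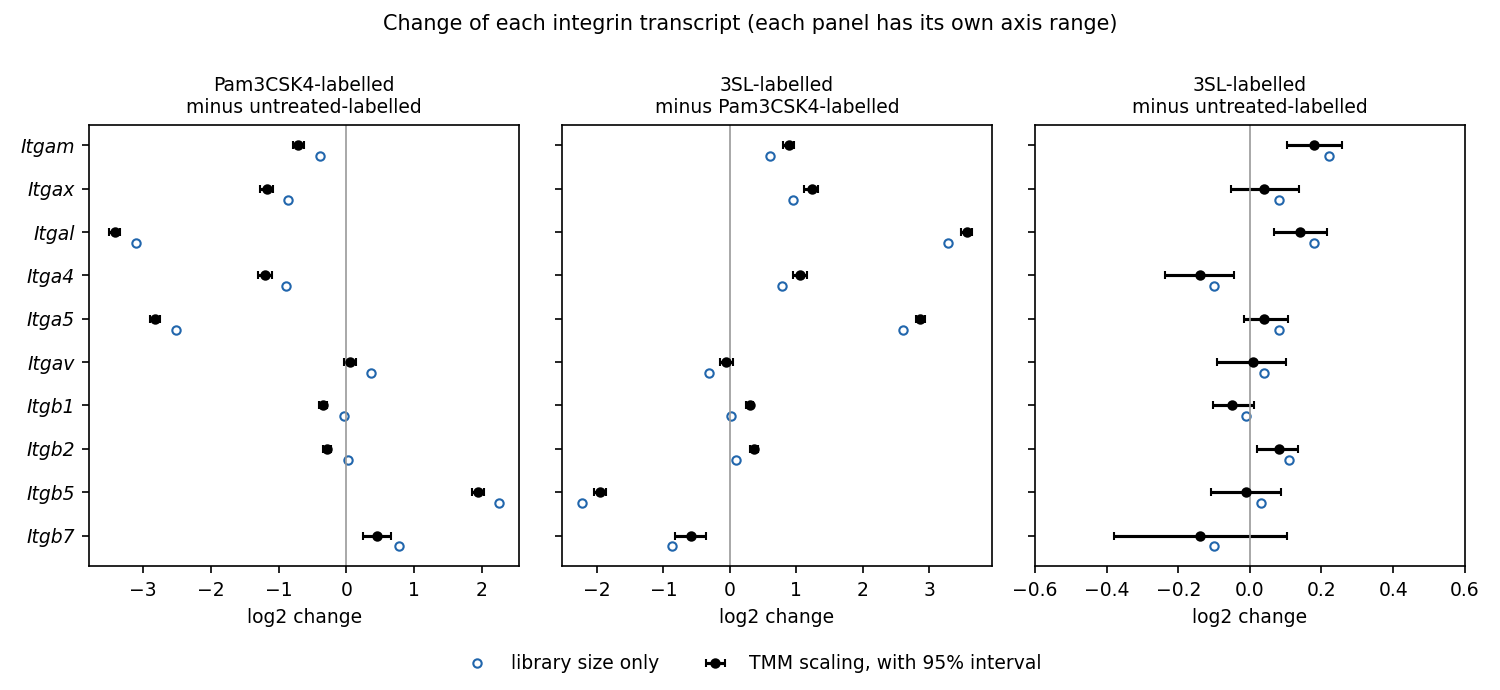
Log2 change of each integrin gene (horizontal axis, a separate range in each panel) in the 3 comparisons, with 95% intervals for TMM scaling (filled) and the estimate for library size only (open). Itgal, Itga5 and Itgb5 are far from 0 under either scaling, while with library size only Itgb1 and Itgb2 lie near 0 in the left panel and Itgav moves away from it. In the right panel, which spans less than the others, the largest TMM estimate is 0.18.

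Compared per kilobase, the order of the 10 levels differed between groups below its top. Itgb2 and Itgb1 led in each group, at 363 and 281 CPM per kilobase in the 3SL-labelled, 282 and 229 in the Pam3CSK4-labelled and 344 and 290 in the untreated-labelled libraries. In the 3SL-labelled libraries Itga5 (226), Itgal (170), Itgam (62.4), Itga4 (24.0), Itgb5 (23.9), Itgav (18.2), Itgax (17.7) and Itgb7 (4.19) followed, all in CPM per kilobase. In this list the ranges of Itga4 and Itgb5, and of Itgav and Itgax, overlapped, and those neighbours were not ordered beyond their spread. The untreated-labelled libraries had the same order, with Itga5 at 219, Itgal at 154 and Itgb7 at 4.70 CPM per kilobase, and no neighbours overlapped. In the Pam3CSK4-labelled libraries Itgb5 came next at 92.7 CPM per kilobase, ahead of Itgam (33.8), Itga5 (30.8), Itgav (18.8), Itgal (14.4), Itga4 (11.5), Itgax (7.56) and Itgb7 (6.26), again without overlap of neighbours. The place of Itgam is uncertain in each order, since most of its bases are shared with Gm49368. By unshared length Itgam stood above Itgal in every group. The ratio of Itgal to Itgam was then 0.854 in the 3SL-labelled, 0.134 in the Pam3CSK4-labelled and 0.876 in the untreated-labelled libraries. Summed over all members, the alpha chains reached 518 ± 7.61 CPM per kilobase in the 3SL-labelled, 117 ± 4.07 in the Pam3CSK4-labelled and 490 ± 1.63 in the untreated-labelled libraries, and the beta chains 672 ± 6.16, 609 ± 1.84 and 663 ± 7.09 in the same order (SD, n = 3 each). With the same counts divided by only the unshared bases, the alpha sums were 657, 192 and 614, and the beta sums were the same.

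Between the 3SL-labelled and the untreated-labelled libraries the integrins differed little. Itgam was higher by 0.18 on the log2 scale (SE 0.04, 1.13-fold, adjusted p 0.00188) and Itgal by 0.14 (SE 0.04, 1.10-fold, adjusted p 0.0098), each above the untreated-labelled libraries in 3 of 3. Without C2plus, the highest library for Itgal, that change was 0.11 and not called (adjusted p 0.0725). Itga4 was lower by a log2 change of -0.14 (SE 0.05, adjusted p 0.0605), which missed the threshold, and it was called in 5 alternatives, the largest being -0.21 (adjusted p 0.00163) without C2plus. Itga5, Itgb1 and Itgb2 did not overlap between these groups either, yet their log2 changes of 0.04, -0.05 and 0.08 were not called (adjusted p 0.424, 0.355 and 0.0918). With library size only Itgb2 was called, at 0.11 (adjusted p 0.00637). The remaining members had 95% intervals that included 0: -0.0535 to 0.136 for Itgax, -0.0907 to 0.102 for Itgav, -0.108 to 0.0861 for Itgb5 and -0.379 to 0.103 for Itgb7, on the log2 scale. Non-overlap was seen for 5 of the 10 members and for 24.0% of all genes.

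The summed levels of several lists of markers of other cells were lowest in the Pam3CSK4-labelled libraries, although the markers within some lists split in direction. In the Pam3CSK4-labelled against the untreated-labelled libraries, 1 of 4 tested dendritic cell markers was called higher and 3 lower. Of 9 tested neutrophil and progenitor markers 3 were higher and 5 lower. Of 5 monocyte markers 2 were higher and 3 lower, and of 4 tested osteoclast markers 2 were higher and 1 lower. Beside these stand 39.0% of all tested genes called higher and 35.9% lower. The 8 dendritic cell markers summed to 6.61 to 7.15 CPM in the 3SL-labelled, 3.52 to 5.22 CPM in the Pam3CSK4-labelled and 8.70 to 10.4 CPM in the untreated-labelled libraries. The 10 neutrophil and progenitor markers, which go with Itgam and Itgal, summed to 637 to 703 CPM in the 3SL-labelled, 342 to 439 CPM in the Pam3CSK4-labelled and 771 to 798 CPM in the untreated-labelled libraries. Monocyte markers summed to 137 to 158, 75.8 to 88.0 and 162 to 170 CPM in the same order, and 6 osteoclast markers, a cell type known for alpha v beta3, to 125 to 134, 75.0 to 77.0 and 168 to 173 CPM. Stromal and endothelial markers summed to 11.2 to 14.8, 4.65 to 5.12 and 15.6 to 16.3 CPM, and those of platelets, mast cells and erythroid cells to at most 9.17 CPM, with Mcpt4 at 0 in every library. None of the markers of the other lists was at 0 in every library. The part of such cells in the integrin changes was not tested.

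Of 17 integrin subunits outside the 10 members, 8 could be tested, and 3 were called higher and 4 lower in the Pam3CSK4-labelled against the untreated-labelled libraries, beside 39.0% and 35.9% of all genes. Itga6, a laminin receptor chain, had 50.2, 50.3 and 52.5 CPM in the 3SL-labelled, 284, 285 and 280 CPM in the Pam3CSK4-labelled and 45.4, 49.1 and 48.5 CPM in the untreated-labelled libraries. Its rise of 2.57 on the log2 scale (SE 0.04, adjusted p 1.24e-27) in the Pam3CSK4-labelled libraries was larger than that of Itgb5. Itga9 and the collagen receptor chain Itga1 changed by -1.86 and -2.32 on the same scale. In the 3SL-labelled against the Pam3CSK4-labelled libraries 4 were higher and 3 lower, beside 34.7% and 36.8% of all genes, and against the untreated-labelled ones only Itgb8 was called, with a log2 change of -0.50 (SE 0.08, adjusted p 5.36e-05).

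Genes that switch integrins on or tie them to actin were mostly lower in the Pam3CSK4-labelled libraries. Of 14 tested, 12 were lower and 1 higher in the Pam3CSK4-labelled than in the untreated-labelled libraries, against 35.9% and 39.0% of all genes, with a median log2 change of -0.52 against 0.03 for all genes. With library size only, 9 were lower and 4 higher, with a median of -0.21. Fyb, an adaptor of the Rap1 pathway, changed by -1.27 on the log2 scale and Rap1b, the GTPase itself, by -0.99. In the 3SL-labelled against the Pam3CSK4-labelled libraries 11 were higher and 1 lower (10 higher and 3 lower with library size only), against 34.7% and 36.8% of all genes. Among 6 inhibitors and Rap1 brakes, 3 were higher and 1 lower in the Pam3CSK4-labelled than in the untreated-labelled libraries (4 higher and 0 lower with library size only), against 39.0% and 35.9% of all genes. One of them, Rasa3, which turns Rap1 off, had 35.7, 31.4 and 28.7 CPM in the 3SL-labelled, 147, 163 and 153 CPM in the Pam3CSK4-labelled and 22.4, 25.7 and 27.4 CPM in the untreated-labelled libraries. It was high in all 3 Pam3CSK4-labelled libraries, with a log2 change of 2.63 (SE 0.06, adjusted p 5.03e-24) against the untreated-labelled ones.

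Among 29 tested genes of adhesion signalling, 12 were higher and 14 lower in the Pam3CSK4-labelled than in the untreated-labelled libraries, against 39.0% and 35.9% of all genes, a split that turned to 16 higher and 12 lower with library size only. The kinases next to the receptor were among the largest changes. Src had 85.7, 87.9 and 84.4 CPM in the 3SL-labelled, 1.36, 2.53 and 1.22 CPM in the Pam3CSK4-labelled and 103, 103 and 102 CPM in the untreated-labelled libraries. That is a log2 change of -5.84 (SE 0.10, adjusted p 3.76e-27) for Pam3CSK4-labelled against untreated-labelled, and the related kinase Fgr changed by -2.87. Syk, the kinase that relays beta2 integrin signals in phagocytes, changed by -2.45. In the 3SL-labelled against the Pam3CSK4-labelled libraries 15 were higher and 10 lower (12 higher and 15 lower with library size only), against 34.7% and 36.8% of all genes. Against the untreated-labelled ones 7 were higher and 1 lower, beside 3.83% and 5.11% of all genes.

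Several transcripts of integrin ligands were much lower in the Pam3CSK4-labelled libraries. Of 13 tested, 9 were lower and 4 higher in the Pam3CSK4-labelled than in the untreated-labelled libraries, against 35.9% and 39.0% of all genes, with a median log2 change of -2.23, against 0.03 over all genes. Icam1, the counter-receptor of LFA-1 and Mac-1, had 962, 1025 and 1023 CPM in the 3SL-labelled, 38.2, 44.4 and 40.7 CPM in the Pam3CSK4-labelled and 1079, 1127 and 1083 CPM in the untreated-labelled libraries. Its log2 change was -4.73 (SE 0.05, 26.5-fold, adjusted p 8.4e-33) for Pam3CSK4-labelled against untreated-labelled. C3, the source of the complement fragment that Mac-1 binds, changed by -4.35, Vcam1, the ligand of alpha 4, by -3.30, and the matrix protein gene Thbs1 by -2.81 on that scale. In the 3SL-labelled against the Pam3CSK4-labelled libraries 8 were higher and 4 lower, against 34.7% and 36.8% of all genes.

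Between the 3SL-labelled and the untreated-labelled libraries 0 of the 13 ligands were called higher and 6 lower (1 higher and 4 lower with library size only), against 3.83% and 5.11% of all genes. Vcam1 had 30.4, 39.9 and 40.5 CPM in the 3SL-labelled, 6.24, 7.0 and 6.34 CPM in the Pam3CSK4-labelled and 59.9, 66.8 and 67.4 CPM in the untreated-labelled libraries, and no groups overlapped. The log2 change for 3SL-labelled against untreated-labelled was -0.79 (SE 0.08, 1.73-fold, adjusted p 4.62e-08). Thbs1 had 199, 191 and 219 CPM in the 3SL-labelled, 41.8, 48.0 and 42.9 CPM in the Pam3CSK4-labelled and 313, 316 and 304 CPM in the untreated-labelled libraries. It was lower by a log2 change of -0.61 (SE 0.05, 1.53-fold, adjusted p 2.89e-10) in the 3SL-labelled than in the untreated-labelled libraries. Icam1 and C3 were lower by log2 changes of -0.13 and -0.14 (adjusted p 0.0184 and 0.0414), which were not called with library size only. The call of C3 was also lost without A2, B2, C2, A2plus or B2plus (adjusted p 0.0726 to 0.153) and that of Icam1 without B2 or A2plus (adjusted p 0.124 and 0.15). DESeq2's Wald test did not call C3 either (log2 change -0.15, adjusted p 0.353).

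Of 10 membrane partners of integrins, 3 were higher and 5 lower in the Pam3CSK4-labelled than in the untreated-labelled libraries, against 39.0% and 35.9% of all genes. With library size only, 6 were higher and 4 lower. Plaur, the urokinase receptor that sits beside Mac-1, changed by -2.45 on the log2 scale, the tetraspanin gene Cd82 by -1.80 and Cd47, the integrin-associated protein gene, by -1.24. In the 3SL-labelled against the Pam3CSK4-labelled libraries 5 were higher and 4 lower (4 higher and 6 lower with library size only), against 71.5% of all genes called. Against the untreated-labelled ones 0 were higher and 3 lower, beside 8.94% of all genes called, Plaur among them at -0.22 (SE 0.05, adjusted p 0.00272).

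**Figure D4:**
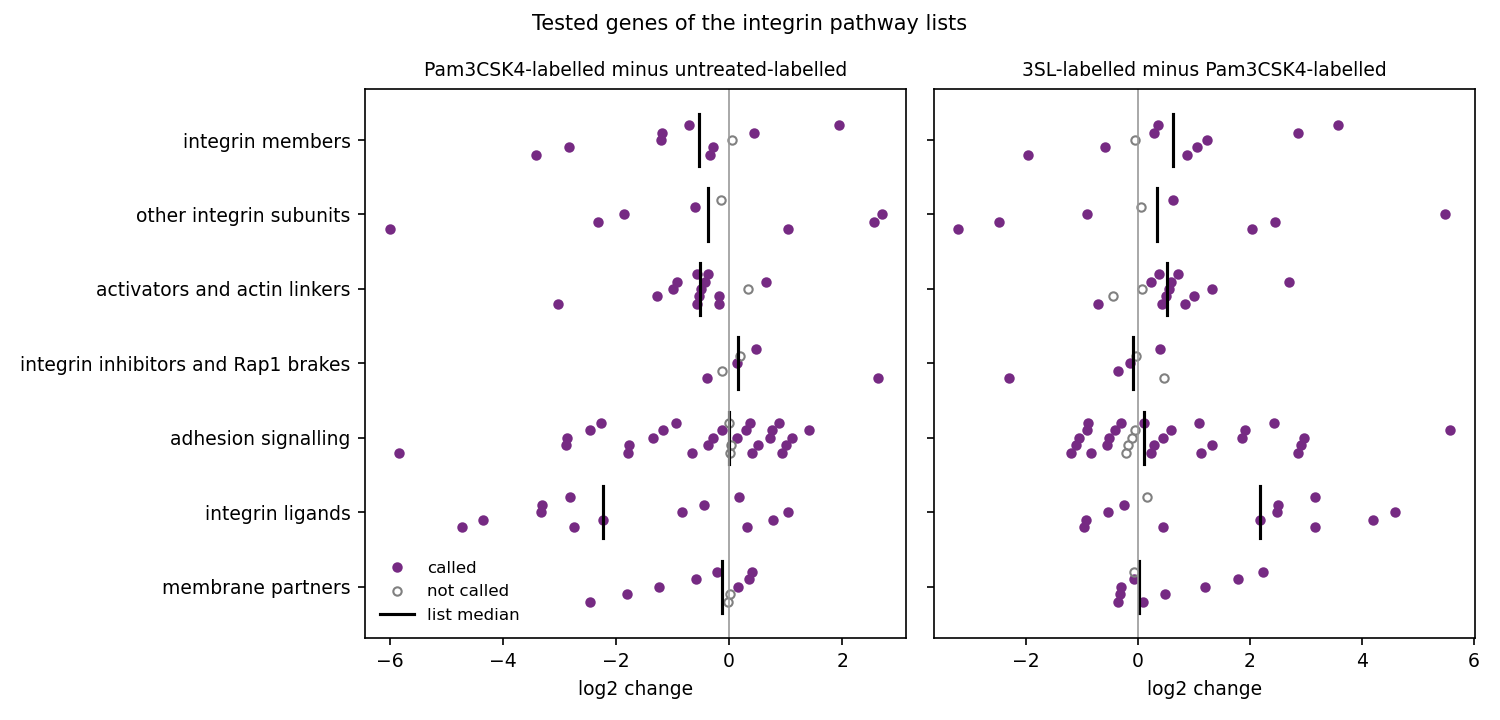
Log2 change (horizontal axis) of every tested gene of the integrin lists in 2 comparisons that share the Pam3CSK4-labelled libraries. Filled points passed the test, open ones did not, and black bars are list medians. The ligand median is at -2.23 on the left and 2.19 on the right, and the members' at -0.52 and 0.63.

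For each member the 2 genes with the most similar pattern over the 9 libraries were found among 9566 genes, by the root mean square difference of log2 CPM centred on each gene's mean. Itga5 was closest to Fgr (0.0432 log2 units) and the lactate transporter gene Slc16a3, Itgal to Rapgef2 (0.107), which encodes an activator of Rap1, and to Vasp, an actin regulator. Itgax was closest to the tropomyosin gene Tpm4 (0.0210) and Arl1, Itga4 to the formin gene Diaph2 (0.0511) and Hif1a, and Itgam to Ppp1r21 (0.0488) and Pgd. Itgb1 was closest to the septin gene Sept7 (0.0160) and Dlst, Itgb2 to Vapa (0.0243) and Tmed9, and Itgav to Mettl14 (0.0398) and Rdh14. Itgb5 was closest to Mfsd12 (0.0588) and Flvcr1, and Itgb7 to Zfp606 (0.0783) and Zfp688. These 9 points fall into 2 clusters, the Pam3CSK4-labelled libraries and the rest, so likeness here is mostly likeness of the step between them. Among the members themselves, Itgb1 and Itgb2 were the closest pair, at 0.0561.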

How the data were processed

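Per the labels' protocols, RNA of mouse bone marrow-derived macrophages was extracted with TRIzol and made into NEBNext Ultra libraries. The sources used here do not say whether strand was kept. The values used are raw counts per gene, deposited by the authors in 1 table. The submitters' processing notes list the tools HISAT2 2.1.0, featureCounts and Subread and the human build hg38, although all 22001 identifiers are of mouse. No source used here gives the annotation release or the counting settings. A further 15 columns of other samples were not used. Titles and treatment tags of the 3SL libraries read Pamc4 and Pamc4-CSL, and their descriptions, which name Pam3CSK4 and 3SL, were followed.

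Symbols, exonic lengths and coordinates are those of GENCODE M21 (GRCm38), which paired 21909 identifiers. Counts were tested in R 4.3.3 with edgeR 4.0.16. Genes kept by filterByExpr (11469) were scaled by TMM factors, a model with 1 mean for each group took in all 9 libraries, and groups were compared by the quasi-likelihood test with Benjamini-Hochberg adjustment over all tested genes and a threshold of 0.05. CPM are counts over the TMM-scaled library size. Floors cover counting error only. Fits were tested on simulated data. Alternatives were library size only, DESeq2 size factors, no filter, thinning to 7472482 counts, only the groups compared, each library left out, a block for the code letter and DESeq2 1.42.0.

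The members, gene lists and tests were chosen with earlier results of these data known. Named were all members, per list up to 4 called genes of at least 2-fold and a mean log2 CPM of at least 2 with the largest change, and 2 nearest genes per member. Some genes that this rule takes are not reported here. Itgb3, Itgb6 and the pairs and ratios of chains were added after their values were seen.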

Additional observations from a re-analysis of the deposited data

How the results depend on the processing

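Over all alternatives, the 10 members gave 448 results on the same side of the threshold as reported. Another 8 became called, 3 lost the call with the same sign, and 1 changed sign and was no longer called. Some uncalled changes near 0, such as those of Itgav, also changed sign. The result that changed sign and lost its call was Itgb2 in the Pam3CSK4-labelled against the untreated-labelled libraries. It stood at 0.02 on the log2 scale with library size only (adjusted p 0.412). That scaling raised the share of called genes that were higher to 74.3%, against 52.0% with TMM, in this comparison, lowered it to 27.6%, against 48.5%, for 3SL-labelled against Pam3CSK4-labelled and raised it to 66.0%, against 42.8%, for 3SL-labelled against untreated-labelled. In the first 2 of these comparisons the total called did not move by more than 1.5 times under any alternative, for the members, for each list or for all genes, though with library size only the split of some lists by direction did. All that follows compares 3SL-labelled with untreated-labelled libraries. With library size only, Itgb2 was called higher (0.11, adjusted p 0.00637), and 2 other integrin subunits and 2 inhibitors were called, against 1 each. With DESeq2 size factors, and likewise with all genes that had a count, 1 member was called lower (Itga4, against 0) and 5 membrane partners, against 3. Thinning to equal depth also called 1 member lower, Itga4. Leaving out each library in turn gave 1 to 2 members called higher, 0 to 1 called lower, 626 to 1038 genes called of all tested, 1 to 2 other subunits, 0 to 1 inhibitors, 4 to 8 genes of adhesion signalling and 1 to 4 membrane partners. The members changed without C2plus, the count of all genes fell most without B2 (626) and A2plus (683, against 1025), and the lists changed without A2 (4 of adhesion signalling), B2 (5 of adhesion signalling, 1 membrane partner), A2plus (5 of adhesion signalling, 0 inhibitors) or C2 (2 other subunits). The cause of these changes was not tested. Codes of these 2 groups share the letters A, B and C, but deviations from the group means in libraries of the same letter correlated at -0.000715, 0.0556 and -0.0125 over 9578 genes, and only B2plus correlated best with its own letter, so the letters were not taken to pair the libraries. With the letter as a replicate block 951 genes and 1 lower member (Itga4, -0.15, adjusted p 0.0244) were called. No block was possible in the other comparisons because the Pam3CSK4-labelled codes share no letter. Depth limits the values with few counts, such as those of Itgb8 in the Pam3CSK4-labelled libraries, at 7 to 15 counts.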

Other observations

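The other integrin subunits that did not pass the filter were near the limit of detection. Itgb6 had no count in any library and Itga11 had 1 count, in B2. Itgae, the chain that pairs with beta7 in mucosal lymphocytes, had 1 to 5 counts a library, and Itgad, a further partner of beta2, had 0 to 9. Itga10 had 5 to 21 counts a library.

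The fibrinogen chains, which are ligands of Mac-1, were seen in some Pam3CSK4-labelled libraries and hardly elsewhere. Fga had 0, 12 and 11 counts in D1, D2 and D3, Fgb had 0, 8 and 12, and Fgg had 0, 13 and 7. In the 3SL-labelled and the untreated-labelled libraries none of the 3 exceeded 2 counts. Libraries of 1 group thus differed in these genes, and they did not pass the filter on low counts.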
